A study of Rattus norvegicus with 24 samples.

Results

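Bdnf, Arc and Homer1 are 3 genes through which a neuron's activity alters its synapses. They were taken from the count table of this series by their Ensembl IDs, ENSRNOG00000047466, ENSRNOG00000043465 and ENSRNOG00000047014. No cutoff on their values was used, but the genes were chosen with earlier results of these data known. All 3 were among the 32754 genes of the table, and all 3 were among the 15908 genes with enough counts to be tested. Their levels are described over 8 groups of rat cortical cell cultures that differed in medium and in treatment.

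In neurons, glutamate opens NMDA receptors, and the calcium that enters activates kinases which switch on a set of early genes. Bdnf encodes brain-derived neurotrophic factor, a secreted neurotrophin that signals through the receptor TrkB and favours survival and synaptic strengthening. Arc encodes an activity-regulated cytoskeleton-associated protein that promotes the removal of AMPA receptors from synapses, and its mRNA is carried into dendrites. Homer1 encodes a postsynaptic scaffold that ties metabotropic glutamate receptors to Shank proteins and to calcium channels of the endoplasmic reticulum. Activity induces short Homer1 transcripts, known as Homer1a, whose protein lacks the domain for multimers and loosens that scaffold. A count per gene adds all transcripts of the gene, so it separates neither Homer1a from the long Homer1 forms nor the transcripts that begin at different Bdnf promoters.

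After 8 days in culture, the rat cortical cells received either new growth medium, called medium here, or medium holding 250 μM glutamate, and imaging then ran for 4 h. Cultures were given the solvent DMSO, which is the control, or an agent known by a code name: IS141, AH609 or AH236. The 8 groups of 3 libraries are thus DMSO, IS141, AH609 and AH236 in medium and the same 4 treatments in glutamate. Neither dose nor timing is labelled for the agents, nor a time of RNA extraction or a strain, sex or age of the rats. Nothing says that the libraries of a group were separate cultures, so the spread behind each p-value is that of libraries and may be technical in part. In bulk RNA such as this, a change in RNA per cell and a change in the share of cells that make it cannot be told apart.

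The libraries held between 22509400 and 35496447 counts. DMSO medium replicate 1 stood apart from the other 23 libraries. Its score on the second principal component of log2 CPM was 48.0, against -19.7 to 12.8 for the others, and its correlation with a replicate across genes fell to 0.982, against at least 0.9925 for replicate pairs without it. That library also had higher levels of all 3 genes than the other DMSO medium libraries. Most results that rest on the DMSO medium group are therefore given with and without it. Without it, that group held 2 libraries.

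The sequence before the transcription start is shown because the 3 genes rose together with glutamate. The RefSeq promoter table for the build GRCr8 held 6 windows for Bdnf, each before a different start, and 1 for Homer1, and Arc had no entry. The windows of Bdnf starts 5 and 6 share most of their bases, so the 6 are not separate sequences. The counts were made on another build, so these coordinates belong to the sequences alone. The 250 bases before each start were searched on both strands for the cyclic AMP response element (CRE, TGACGTCA), its variant TCACGTCA, its short core CGTCA, the AP-1 site TGACTCA, the E-box CACGTG, the EGR site GCGNGGGCG and the CArG box of serum response factor. The variant TCACGTCA, with the core CGTCA inside it, was found at 1 of the 6 Bdnf starts, start 4 in 5′ to 3′ order, where it begins 38 bases before the start. It is in capitals in the Bdnf sequence below. The Homer1 window had no match, and no other match to these motifs was found at the 6 Bdnf starts. Of all 33469 windows in the table, 0.35% held TCACGTCA, 18.2% held the core, 1.59% held the full CRE, 4.05% the AP-1 site, 5.59% the E-box, 4.29% the EGR site and 1.5% the CArG box. TCACGTCA was the only CRE variant with 1 changed base on the list, and it was put there by choice. The 0.35% is the share for that string alone, so it does not measure how rare a match to any such variant is. A match is a description of letters, and the counts do not say which Bdnf start was used.
Bdnf start 4, chr3:116637608-116637857, GRCr8, plus strand: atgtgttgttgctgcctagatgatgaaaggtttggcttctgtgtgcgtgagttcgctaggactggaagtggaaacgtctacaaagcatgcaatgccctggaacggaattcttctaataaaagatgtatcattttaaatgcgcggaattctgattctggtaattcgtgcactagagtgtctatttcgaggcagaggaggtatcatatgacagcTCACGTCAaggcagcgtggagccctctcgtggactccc
Homer1, chr2:26278762-26279011, GRCr8, plus strand: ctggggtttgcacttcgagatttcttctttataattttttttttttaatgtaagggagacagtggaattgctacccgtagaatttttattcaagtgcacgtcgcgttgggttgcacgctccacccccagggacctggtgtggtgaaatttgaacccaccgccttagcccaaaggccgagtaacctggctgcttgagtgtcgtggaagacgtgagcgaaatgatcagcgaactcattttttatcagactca

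Levels are given as CPM after TMM scaling, a read share per library, a unit that is not corrected for transcript length, so levels are compared between groups and not between genes. Bdnf stood at 36.5, 10.5 and 14.3 CPM in the DMSO medium libraries, in the order of replicates 1 to 3. With IS141 in medium it stood at 40.8, 48.5 and 56.2 CPM, with AH609 at 32.8, 28.8 and 37.1 CPM, and with AH236 at 28.5, 31.3 and 27.9 CPM. In glutamate it stood at 373, 426 and 424 CPM with DMSO, 519.9, 461 and 407.5 CPM with IS141, 447, 484 and 445 CPM with AH609, and 473.5, 518 and 488 CPM with AH236. Every glutamate library lay far above every medium library, and within medium DMSO replicates 2 and 3 were the lowest of the 12.

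Arc varied more between the medium groups. It stood at 35.7, 12.15 and 13.1 CPM in DMSO medium replicates 1 to 3, at 29.8, 27.7 and 43.6 CPM with IS141, at 14.3, 13.2 and 19.9 CPM with AH609, and at 6.58, 7.63 and 9.39 CPM with AH236. In glutamate it stood at 359, 359 and 336 CPM with DMSO, 318, 357 and 350.5 CPM with IS141, 370.2, 334 and 325 CPM with AH609, and 245, 234 and 281 CPM with AH236. The AH236 libraries were the 3 lowest of 12 in each medium. The lowest Arc count in any library was 198, in AH236 medium replicate 1, with an exact 95% Poisson interval of 171 to 228 that covers counting error only.

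Homer1 had the narrowest range. It stood at 104.6, 80.6 and 89.2 CPM in DMSO medium replicates 1 to 3, at 103.4, 113.4 and 104.7 CPM with IS141, at 92.1, 96.2 and 95.95 CPM with AH609, and at 95.3, 95.3 and 92.4 CPM with AH236. In glutamate it stood at 254, 268 and 262.5 CPM with DMSO, 306, 302 and 274.5 CPM with IS141, 277, 305 and 298.5 CPM with AH609, and 283, 304 and 298 CPM with AH236. Medium and glutamate libraries did not overlap for this gene either.

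**Figure D1:**
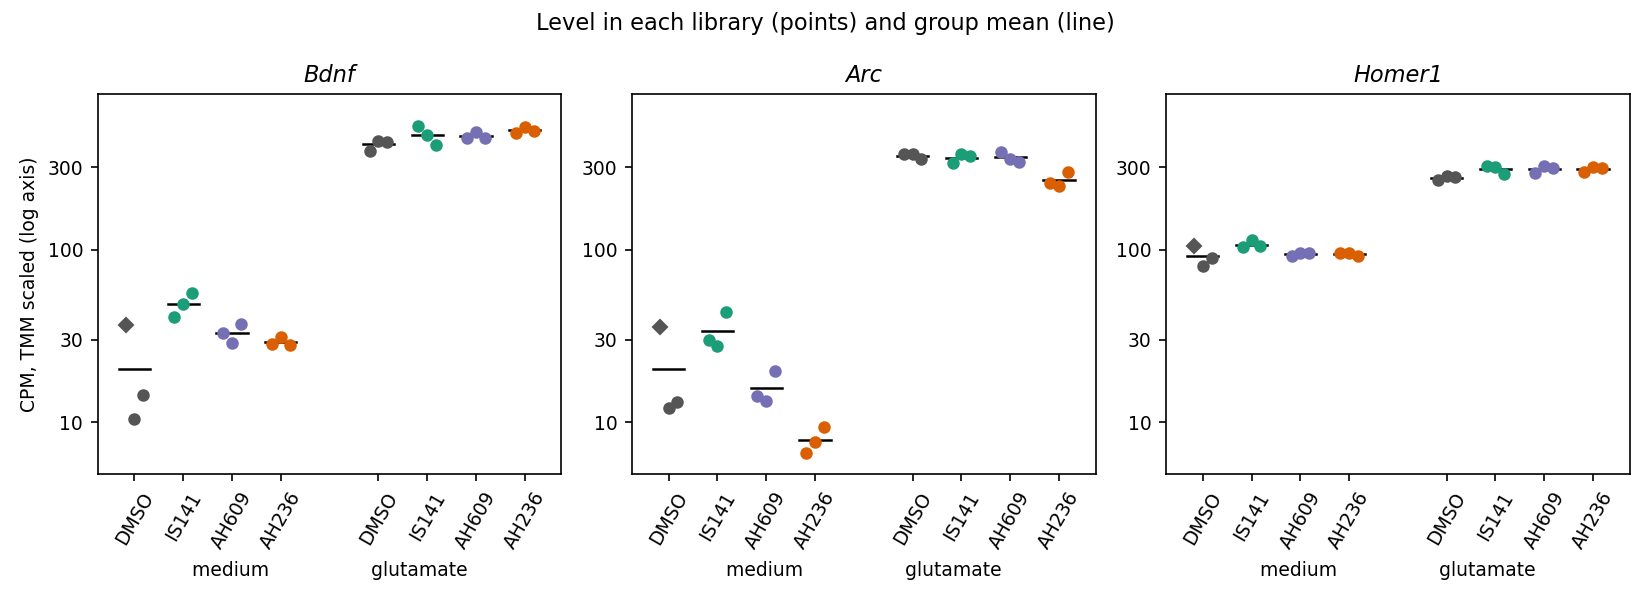
Level of Bdnf, Arc and Homer1 in each of 24 libraries, in CPM on a log axis, by treatment and medium; points are libraries, lines are group means of 3 libraries, and the diamond is DMSO medium replicate 1. For each gene all 12 glutamate libraries lie above all 12 medium libraries, and the diamond lies above the other DMSO medium points.

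The spread within a group was widest for the DMSO medium libraries. Their coefficient of variation was 68.8% for Bdnf, 65.6% for Arc and 13.3% for Homer1. In the other 7 groups it lay between 4.62% and 15.9% for Bdnf, between 3.75% and 25.7% for Arc and between 1.77% and 5.85% for Homer1. Without replicate 1, the mean of the DMSO medium libraries fell from 20.4 to 12.4 CPM for Bdnf, from 20.3 to 12.6 CPM for Arc and from 91.5 to 84.9 CPM for Homer1.

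In the order of group means, the 4 glutamate groups came before the 4 medium groups for each gene. For Bdnf the order was AH236 (493 CPM), IS141 (463), AH609 (459) and DMSO (408) in glutamate, then IS141 (48.5), AH609 (32.9), AH236 (29.3) and DMSO (20.4) in medium. Neighbouring Bdnf groups whose libraries did not overlap were AH609 and DMSO in glutamate, DMSO in glutamate and IS141 in medium, and IS141 and AH609 in medium. For Arc the order was DMSO (351 CPM), AH609 (343), IS141 (342) and AH236 (253) in glutamate, then IS141 (33.7), DMSO (20.3), AH609 (15.8) and AH236 (7.87) in medium. The Arc neighbours that did not overlap were IS141 and AH236 in glutamate, AH236 in glutamate and IS141 in medium, and AH609 and AH236 in medium. For Homer1 the order was AH236 (295 CPM), IS141 (294), AH609 (293) and DMSO (261) in glutamate, then IS141 (107), AH609 (94.8), AH236 (94.4) and DMSO (91.5) in medium. Its neighbours that did not overlap were AH609 and DMSO in glutamate, DMSO in glutamate and IS141 in medium, and IS141 and AH609 in medium. All other neighbours in these orders overlapped, and each overlap that involved DMSO in medium came from DMSO medium replicate 1. Overlap does not show that levels were alike. The share of all genes with gaps between groups, here and below, was not computed, so these gaps are a description.

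Glutamate raised the RNA of all 3 genes in every treatment. In DMSO cultures, Bdnf was 20.0-fold higher in glutamate than in medium, Arc 17.3-fold and Homer1 2.86-fold. As log2 fold changes these were 4.32 ± 0.31 (SE), 4.11 ± 0.31 (SE) and 1.51 ± 0.07 (SE), with edgeR adjusted p-values of 2.05e-09, 4.7e-09 and 4.98e-16. The background was high: 28.6% of the 15908 genes tested were called higher in that comparison. Without DMSO medium replicate 1 the rises were 32.7-fold for Bdnf, 27.8-fold for Arc and 3.07-fold for Homer1, and 29.1% of genes were called higher.

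In IS141 cultures Bdnf rose 9.56-fold, Arc 10.2-fold and Homer1 2.75-fold, where 28.9% of genes were called higher. In AH609 cultures they rose 13.9-fold, 21.7-fold and 3.1-fold, where 30.1% of genes were called higher. In AH236 cultures they rose 16.8-fold, 32.1-fold and 3.13-fold, where 29.5% of genes were called higher. The edgeR adjusted p-values of these 9 rises ran from 6.17e-17 to 4.12e-08. Among the agents, Bdnf and Arc thus had their smallest rise with IS141, whose medium group had the highest mean of both, and their largest with AH236. The ranking of the 4 treatments was not tested as such, and the differences from DMSO are tested further on.

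Over all 4 treatments the log2 fold change was 4.23 ± 0.16 (SE) for Arc, 3.86 ± 0.15 (SE) for Bdnf and 1.56 ± 0.03 (SE) for Homer1, with adjusted p-values of 5.68e-14, 8.93e-14 and 1.09e-23. In that comparison 38.8% of genes were called higher. Ranked by log2 fold change from the highest, Arc was number 61, Bdnf number 83 and Homer1 number 722 of 15908 genes, and the median of all genes was 0. The rise of Homer1 was the smallest of the 3 and had the smallest standard error. Without DMSO medium replicate 1 the log2 fold changes were 4.39 for Arc, 4.04 for Bdnf and 1.585 for Homer1. With library totals in place of TMM, the all-gene median log2 fold change was -0.19 here, and the 3 genes were still called higher in every treatment.

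**Figure D2:**
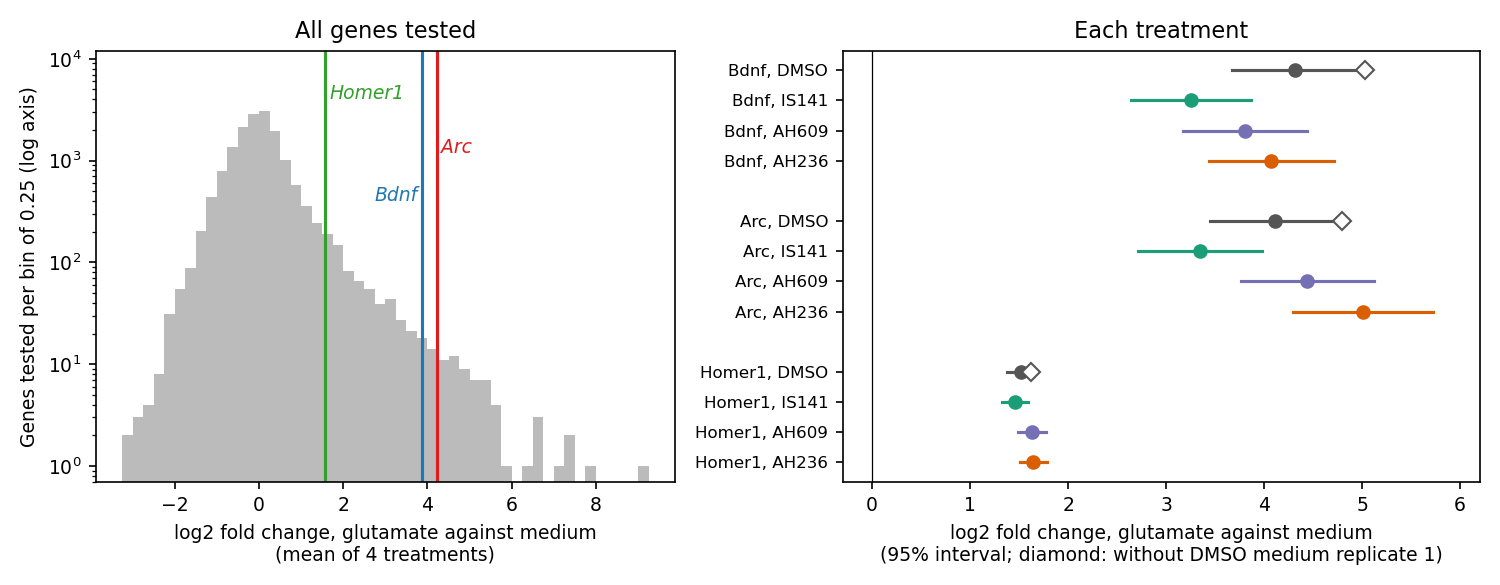
Left, distribution of the log2 fold change of glutamate against medium over all 4 treatments for 15908 genes (log count axis), with Bdnf, Arc and Homer1 marked at 3.86, 4.23 and 1.56. Right, the same quantity in each treatment with its 95% interval, and diamonds for DMSO without medium replicate 1; no interval reaches 0.

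Each agent was then set against DMSO in medium, to ask whether it altered these genes without added glutamate. The 3 comparisons share the same DMSO libraries, and the agents' doses are not given, so the agents are set side by side and not tested against each other. With IS141, 2 of the 3 genes were called, Bdnf and Homer1, both higher, where 4.48% of genes were called higher and 3.5% lower. Bdnf was 2.37-fold higher (log2 1.25 ± 0.29 SE, edgeR adjusted p = 0.0142), and 3.89-fold higher without DMSO medium replicate 1 (adjusted p = 2.81e-07). Homer1 was 1.17-fold higher (log2 0.23 ± 0.07 SE, adjusted p = 0.0321), and 1.26-fold higher without that library (adjusted p = 7.66e-05). Arc had a ratio of 1.66 to DMSO (log2 0.73 ± 0.30 SE, adjusted p = 0.159), and rose 2.67-fold without that library (adjusted p = 0.000146), where 7.18% of genes were called higher.

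These IS141 calls also depended on other libraries. Bdnf lost its call without IS141 medium replicate 3 (log2 1.13, adjusted p = 0.0573). Homer1 lost its call without DMSO medium replicate 2 (0.15, adjusted p = 0.192), DMSO medium replicate 3 (0.21, 0.0703), IS141 medium replicate 2 (0.19, 0.185) or IS141 medium replicate 3 (0.25, 0.0584). When the IS141 and DMSO medium groups were fitted alone, 0 of the 3 genes were called, with values of 1.26 for Bdnf (adjusted p = 0.364) and 0.24 for Homer1 (adjusted p = 0.314), and 0.416% of genes were called in either direction. Without DMSO medium replicate 1, that fit of the groups alone called Bdnf (1.96, adjusted p = 0.00648) and Homer1 (0.34, adjusted p = 0.00106) higher, with Arc at 1.42 (adjusted p = 0.0581), where 7.38% of genes were called higher.

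With AH609 in medium, edgeR called 0 of the 3 genes, and DESeq2 likewise 0. Of all genes, edgeR called 3.06% and DESeq2 4.35% in either direction. By edgeR 1 of the 3 genes had an unadjusted p under 0.05, and the share of all genes at that unadjusted threshold was not computed. The log2 difference of Bdnf from DMSO was 0.69 (95% interval 0.07 to 1.31, adjusted p = 0.252), and all 3 AH609 libraries lay above DMSO replicates 2 and 3. Without DMSO medium replicate 1 it was 1.40 (2.64-fold, adjusted p = 3.37e-05), a rise, where 4.46% of genes were called higher. Arc had a log2 difference of -0.36 (-1.03 to 0.31, adjusted p = 0.647), which turned to 0.32 (-0.13 to 0.77, adjusted p = 0.469) without that library. For Homer1 the difference was 0.05 (-0.09 to 0.19, adjusted p = 0.781), and 0.16 (adjusted p = 0.101) without it.

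With AH236 in medium, Arc was the only one of the 3 genes called, and it was lower, where 4.95% of genes were called lower. Its mean was 7.87 ± 1.42 CPM with AH236 and 20.3 ± 13.3 CPM with DMSO (SD, n = 3 libraries each), a 2.57-fold lower level (log2 -1.36 ± 0.33 SE, edgeR adjusted p = 0.0137). By log2 fold change Arc was number 163 from the lowest of 15908 genes. All 3 AH236 libraries lay below all 3 DMSO libraries, including replicates 2 and 3 at 12.15 and 13.1 CPM. The size of the fall rested on DMSO medium replicate 1: without it the log2 difference was -0.68 (-1.15 to -0.21), and the call was lost in the edgeR fit of all groups (adjusted p = 0.0712). Without that library Arc was still called lower by DESeq2 (-0.68, adjusted p = 0.0128) and by edgeR with the AH236 and DMSO medium groups alone (-0.68, adjusted p = 0.00361), where 3.36% and 3.12% of genes were called lower. The call was also lost without AH236 medium replicate 1 (-1.25, adjusted p = 0.0674) and with the 2 groups fitted alone on all their libraries (-1.37, adjusted p = 0.266), where 0.58% of genes were called.

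Bdnf, in the same AH236 comparison, had a log2 difference in the other direction, 0.52 (95% interval -0.10 to 1.14, adjusted p = 0.3). Without DMSO medium replicate 1 it rose by 1.23 (2.35-fold, adjusted p = 0.000106), where 5.33% of genes were called higher. Homer1 differed by 0.04 (-0.09 to 0.18, adjusted p = 0.737), and by 0.15 (adjusted p = 0.0979) without that library. Scaling by library totals turned the Homer1 value to -0.02.

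**Figure D3:**
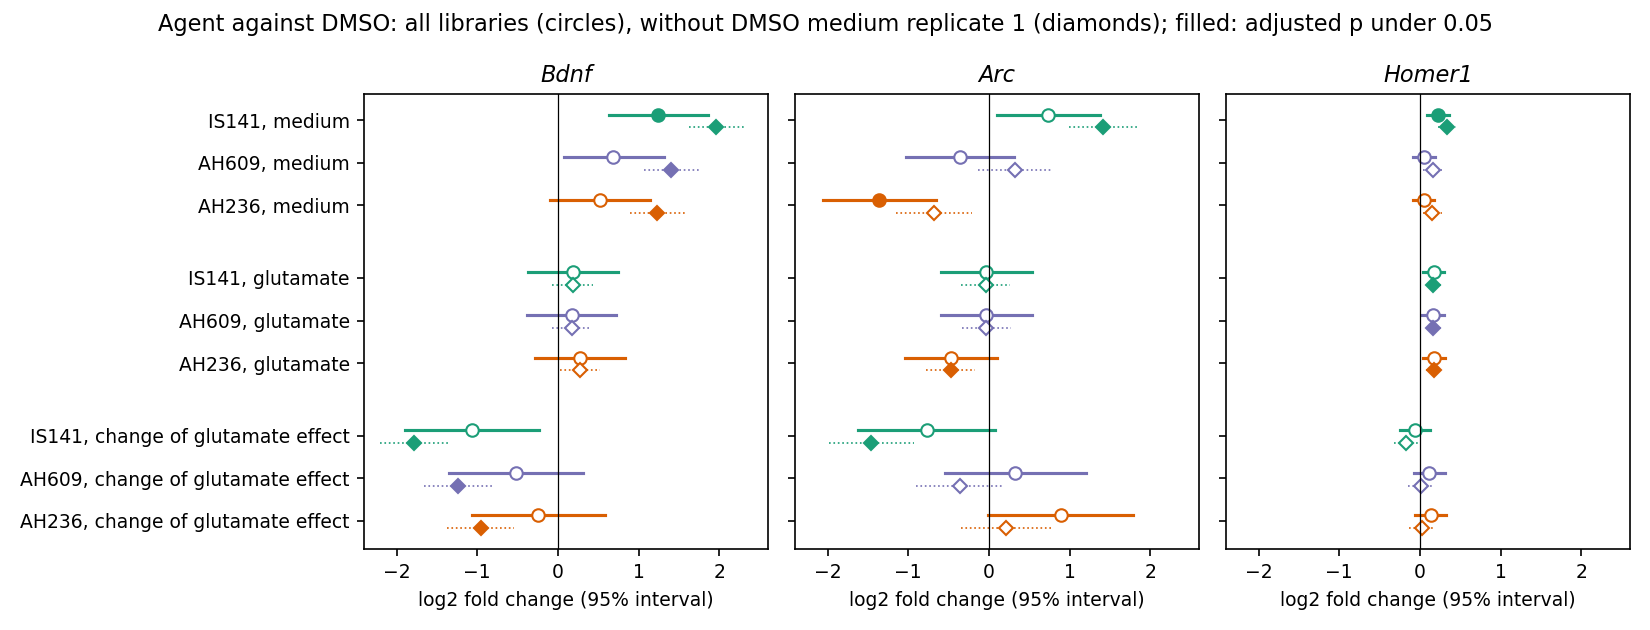
Log2 fold change of each agent against DMSO in medium and in glutamate, and the change of the glutamate effect, with 95% intervals; circles use all libraries, diamonds leave out DMSO medium replicate 1, and filled symbols have an adjusted p under 0.05. The Bdnf values in medium move to the right without that library, to 1.96, 1.40 and 1.23, while the Homer1 values stay within 0.34 of 0.

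In glutamate, the agents were compared with DMSO on the induced level. With all libraries in 1 fit, edgeR called 0 of the 3 genes with any of the 3 agents, and DESeq2 likewise 0. By edgeR 1 gene per agent, Homer1 each time, had an unadjusted p under 0.05. How many of all genes passed that unadjusted threshold was not computed. The share of all genes called in either direction was 8.46% for IS141, 2.62% for AH609 and 10.3% for AH236 by edgeR, and 9.52%, 3.42% and 11.1% by DESeq2. Homer1 had ratios to DMSO of 1.13, 1.12 and 1.13, or log2 differences of 0.17 ± 0.06 (SE) with IS141, 0.17 ± 0.06 (SE) with AH609 and 0.18 ± 0.06 (SE) with AH236, with adjusted p-values of 0.101, 0.18 and 0.0855. Every agent library in glutamate lay above every DMSO glutamate library for Homer1, from 274.5 CPM against at most 268 CPM.

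Leaving DMSO medium replicate 1 out of the shared fit left these differences in place, since it is not among the compared libraries, and lowered the pooled spread. Homer1 was then called higher with all 3 agents, with adjusted p-values of 0.0186, 0.037 and 0.0124, where 7.39%, 3.52% and 9.34% of genes were called higher. For AH236 it was also called without DMSO medium replicate 2 (adjusted p = 0.0442).

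The mean of Arc with AH236 in glutamate was 253 ± 24.5 CPM, and with DMSO 351 ± 13.2 CPM (SD, n = 3 libraries each), and the groups did not overlap. The log2 difference was -0.47 (95% interval -1.04 to 0.10, adjusted p = 0.314) with all libraries, and -0.47 (-0.78 to -0.17, adjusted p = 0.0363) without DMSO medium replicate 1, where 6.35% of genes were called lower. With the AH236 and DMSO glutamate groups fitted alone, all 3 genes were called: Arc at -0.48 (adjusted p = 6.05e-05), Bdnf at 0.26 (adjusted p = 0.00526) and Homer1 at 0.16 (adjusted p = 0.0345), where 12% of genes were called in either direction. The direction for Arc was thus the same with AH236 in both media, which share no library.

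With IS141 and AH609 in glutamate, Arc differed from DMSO by log2 -0.04 (95% interval -0.60 to 0.53) and -0.04 (-0.60 to 0.53). These values turned to 0.009 without IS141 glutamate replicate 1 and to 0.004 without AH609 glutamate replicate 3. Bdnf differed by 0.18 (-0.37 to 0.74), 0.17 (-0.38 to 0.72) and 0.27 (-0.28 to 0.83) with IS141, AH609 and AH236. The intervals are wide and do not show that the levels were alike.

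The change of the glutamate effect, an interaction term, asked whether the rise from medium to glutamate differed between an agent and DMSO. With all libraries, edgeR called 0 of the 3 genes for any agent. Of the 9 values, 1 had an unadjusted p under 0.05, Bdnf with IS141, and DESeq2 called 0. The share of all genes at that unadjusted threshold was not computed. Few genes of any kind were called, 0.779%, 0.0251% and 1.55% for IS141, AH609 and AH236 by edgeR, and 1.33%, 0.176% and 2.78% by DESeq2. The Bdnf rise differed from that in DMSO by log2 -1.06 (95% interval -1.89 to -0.24, adjusted p = 0.316) with IS141, -0.52 (-1.35 to 0.31, adjusted p = 0.844) with AH609 and -0.24 (-1.07 to 0.58, adjusted p = 0.85) with AH236.

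Without DMSO medium replicate 1 the Bdnf rise was smaller with each agent than with DMSO, by log2 -1.78 (adjusted p = 2.98e-05), -1.23 (adjusted p = 0.00383) and -0.96 (adjusted p = 0.0134). In the same order 3.36%, 1.11% and 1.63% of genes were then called with a smaller value. These 3 differences share the DMSO libraries, and their DMSO medium group held only 2 libraries. With DMSO medium replicate 2 left out instead, the Bdnf values were -0.76 with IS141 and -0.21 with AH609, and the AH236 value turned to 0.07. The Arc rise with IS141 was smaller than with DMSO without DMSO medium replicate 1, by -1.46 (adjusted p = 0.0018), and the value was -0.77 (-1.62 to 0.08, adjusted p = 0.57) with all libraries. For AH609 the Arc value was 0.33 with all libraries and -0.36 without replicate 1, and for AH236 it was 0.89 (-0.01 to 1.79, adjusted p = 0.354) and 0.21 (adjusted p = 0.788). For Homer1 the 3 values lay between -0.06 and 0.13 with all libraries, and the smallest adjusted p was 0.572. Without DMSO medium replicate 1 they were -0.17 with IS141, 0.007 with AH609 and 0.024 with AH236.

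Because Bdnf and Arc had values of opposite sign with AH236, the ratio of the counts of 2 genes within a library was examined. It needs no scaling between libraries, and gene length cancels when groups are compared. This measure was added after the levels had been seen, and the p-values of the ratios do not allow for that choice. The log2 ratio of Bdnf to Arc counts in medium was -0.02 ± 0.18 (SD, n = 3) with DMSO, 0.54 ± 0.24 with IS141, 1.07 ± 0.16 with AH609 and 1.91 ± 0.30 with AH236. The DMSO medium libraries lay between -0.21 and 0.13, so that replicate 1, which stood apart in the level of each gene, did not stand apart in this ratio. No 2 of these 4 groups overlapped.

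An exact permutation test over the 4 treatments in medium gave p = 6.49e-05 for Bdnf to Arc, the smallest p that the 369600 splits can give (0.000389 after Benjamini-Hochberg adjustment over 6 tests). The difference of AH236 from DMSO was 1.93 with all libraries and 1.95 without DMSO medium replicate 1. In glutamate the ratio was 0.21 ± 0.14 (SD, n = 3) with DMSO, 0.43 ± 0.25 with IS141, 0.42 ± 0.14 with AH609 and 0.96 ± 0.18 with AH236 (exact permutation p = 0.00818, adjusted 0.0123). Here only the AH236 libraries, from 0.80 to 1.15, lay apart from the other 9, which reached 0.71.

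In the ratio of Arc to Homer1 counts, the AH236 libraries were the lowest in each medium. Its log2 value in medium was -3.60 ± 0.28 with AH236, against -2.35 ± 0.69 with DMSO (SD, n = 3 each). That difference of -1.25 became -0.85 without DMSO medium replicate 1. With IS141 the value was -1.70 ± 0.40 and with AH609 -2.61 ± 0.31. Over the 4 treatments the exact permutation p was 0.00578 (adjusted 0.0116), and it was not recomputed without that library. In glutamate the ratio was -0.22 ± 0.15 with AH236, 0.43 ± 0.07 with DMSO, 0.22 ± 0.15 with IS141 and 0.22 ± 0.17 with AH609 (exact permutation p = 0.00448, adjusted 0.0116). These tests cover all 4 treatments, so their p-values do not single out AH236. Bdnf to Homer1 in glutamate lay between 0.64 and 0.74 in all 4 group means (exact permutation p = 0.317). In medium its group means ran from -2.37 with DMSO to -1.16 with IS141, and the adjusted p was 0.0583 (exact permutation). Its difference of AH236 from DMSO in medium was 0.68, and 1.1 without DMSO medium replicate 1. The 3 ratios are not independent, since each gene enters 2 of them.

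**Figure D4:**
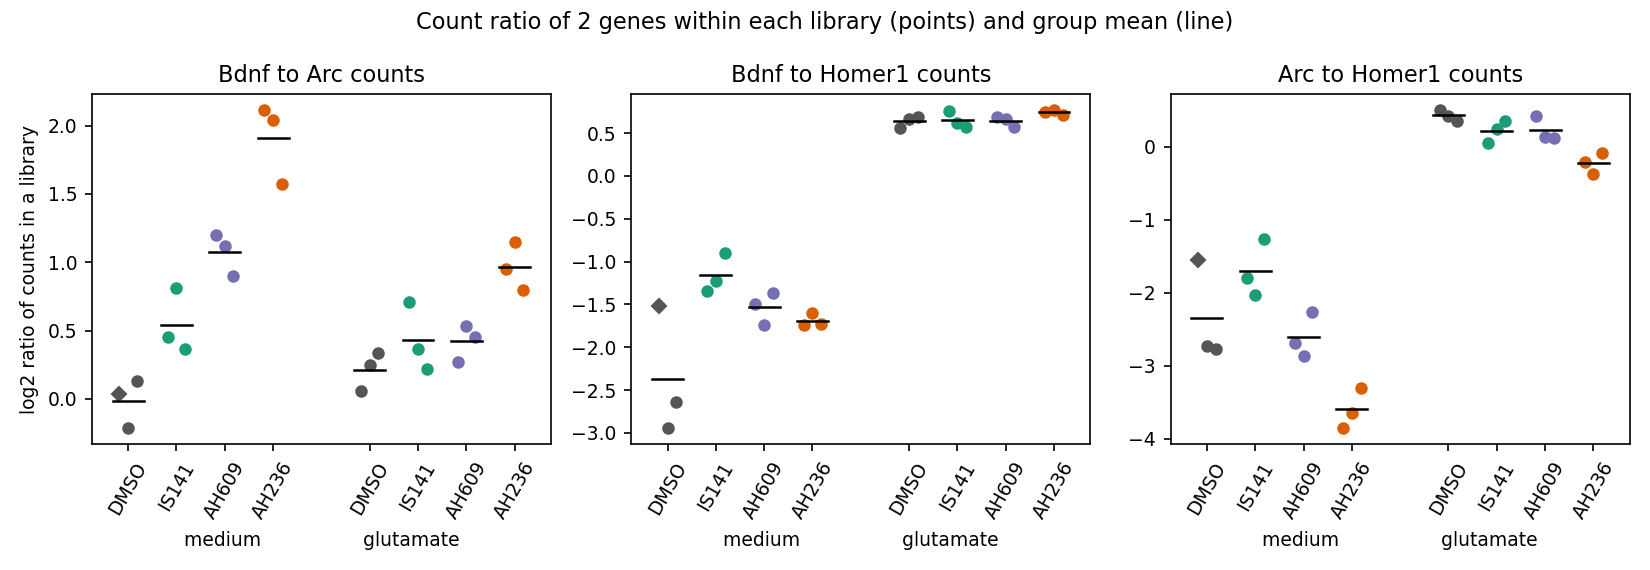
Log2 ratio of the counts of 2 genes in each of 24 libraries (points) with group means of 3 libraries (lines); the diamond is DMSO medium replicate 1. In the left panel the 4 medium groups follow each other without overlap from -0.02 with DMSO to 1.91 with AH236, and in the right panel the AH236 libraries are the lowest in each medium.

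Across the 12 libraries of a medium, the genes were compared in pairs on log2 CPM, with permutation tests adjusted over 6 relations. The libraries include 4 treatments, so these relations hold differences between treatments as well as between replicates. The permutations shuffled libraries across treatments, so their p-values do not tell these apart. Bdnf and Homer1 were positively correlated in both media. In medium Pearson's r was 0.886 (permutation p = 8e-05, adjusted 0.00042) and Spearman's rho 0.862 (adjusted p = 0.00138). In glutamate r was 0.876 (permutation p = 0.00014, adjusted 0.00042) and rho 0.886 (adjusted p = 0.00096). Without the 2 libraries farthest from the median of Bdnf, r was 0.804 and 0.785 (adjusted p = 0.02 each, by permutation).

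Bdnf and Arc gave another picture. In medium r was 0.553 (permutation p = 0.0521, adjusted 0.0625) and rho 0.797 (adjusted p = 0.00568), and r was 0.852 (adjusted p = 0.00744) without DMSO medium replicates 2 and 3, the farthest from the median. In glutamate r was negative, -0.629 (permutation p = 0.0193, adjusted 0.0303), with a rho of -0.699 (adjusted p = 0.0173) and an r of -0.727 (adjusted p = 0.0295) without the 2 farthest libraries. The negative relation lost its call when the AH236 libraries were left out, a check chosen once the values were known (r = -0.573, n = 9, exact permutation adjusted p = 0.121). In medium the same removal gave r = 0.785 (n = 9, exact permutation adjusted p = 0.00186).

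For Arc and Homer1, r was 0.649 in medium (permutation p = 0.0202, adjusted 0.0303, rho 0.704). Without the 2 libraries farthest from the median of Arc, DMSO medium replicate 1 and IS141 medium replicate 3, r was 0.547 and no longer passed (n = 10, permutation adjusted p = 0.0992). It was 0.61 without DMSO medium replicate 1 alone, and 0.816 without the AH236 libraries (n = 9, exact permutation adjusted p = 0.00851). In glutamate r was -0.425 (permutation p = 0.164) and rho -0.581 (adjusted p = 0.0497), and r was -0.527 (n = 10, permutation adjusted p = 0.0992) without the 2 farthest libraries and -0.557 (n = 9, exact permutation adjusted p = 0.121) without AH236.

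**Figure D5:**
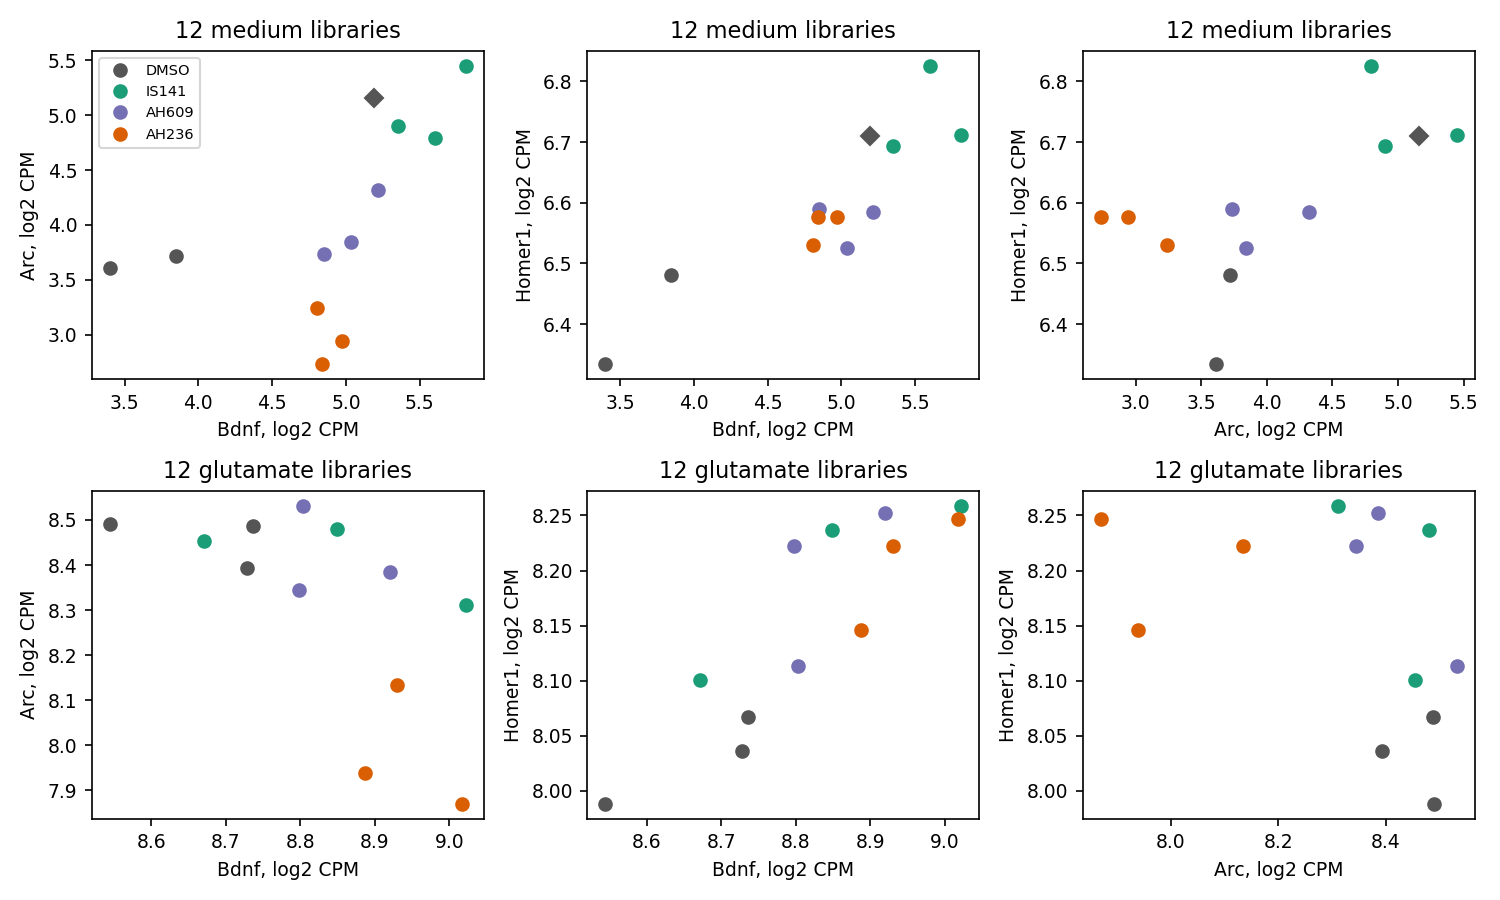
Log2 CPM of each pair of genes in the 12 medium libraries (top) and the 12 glutamate libraries (bottom), coloured by treatment, with a diamond for DMSO medium replicate 1. Bdnf and Homer1 are positively correlated in both rows (r of 0.886 and 0.876), while Bdnf and Arc have an r of 0.553 in medium and -0.629 in glutamate, where the AH236 points are the lowest for Arc.

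The genes with the most similar pattern were sought among the 12168 other genes whose log2 CPM averaged 1 or more, as a description. All libraries share the difference between media, which by itself gives high correlations: over all 24 libraries the closest gene had an r of 0.996 with Bdnf, 0.997 with Arc and 0.997 with Homer1. After the mean of each medium was subtracted, the closest r was 0.956 for Bdnf, 0.973 for Arc and 0.873 for Homer1. ENSRNOG00000054344 was the closest to Arc by both measures, and ENSRNOG00000024114 the closest to Homer1 by both. Both rose with glutamate, by log2 3.00 and 2.82 over all 4 treatments. With the medium means subtracted, Bdnf was number 32 of the 12168 genes in likeness to Homer1 (r = 0.803), whereas Arc was number 1313 (r = 0.445).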

How the data were processed

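RNA from 24 libraries of rat cortical cells, 3 for each of 4 treatments in 2 media, was sequenced by the authors. What the authors deposited is a single table of raw, unscaled counts, in whole numbers, by Ensembl gene ID. RSEM 1.3.3, STAR 2.7.8a, cutadapt 2.3, FastQC 0.11.8 and bcl2fastq are named per the submitters' processing notes, as is the build Rnor_6.0. The strand setting of the counting is not given in the sources used here. Since RSEM yields estimates, these whole numbers may have been rounded.

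The tests ran in edgeR 4.0.16 (R 4.3.3) after filterByExpr, which kept 15908 of 32754 genes, and TMM scaling. The quasi-likelihood F test used 1 fit to the 24 libraries, with a mean for each group. Each of 14 comparisons was adjusted across its genes by Benjamini-Hochberg, and "called" means an adjusted p under 0.05. CPM are TMM scaled, and log2 CPM have a prior count of 2. Standard errors were derived from the fold change and the F statistic of its test. The fit was tested on simulated data that held no outlying library and no difference between media, so that test covers neither. DESeq2 1.42.0, RLE and library-total scaling, no filter, fits of the compared groups alone, the replicate number as a block and the removal of each library were alternatives. Permutation tests used scipy 1.17.1. Of the AH236 glutamate libraries, 2 carry the number 2 in their labels; replicate 3 here is the one listed last. Promoter windows were matched by symbol.

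The members, lists and tests were chosen with earlier results of these data known. The rule for other genes was to name, for each member, the 3 with the highest Pearson r over the 24 libraries and the 3 with the highest r after each medium's mean was subtracted, and up to 4 per pathway list. The tables used pair no Ensembl ID with a symbol, so 0 genes of the 5 pathway lists and 6 cell type marker lists were matched, none gave a result, and the labelled cell type could not be checked against markers. Of the genes found by r, 2 are printed, by ID.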

Additional observations from a re-analysis of the deposited data

How the results depend on the processing

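For the 3 genes, all 42 values kept direction and call with RLE size factors, DESeq2, no filter and the replicate block. With library totals 41 did; Homer1 with AH236 in medium turned to -0.016. Fitting the compared groups alone ended the medium calls of Bdnf with IS141 (1.26), Homer1 with IS141 (0.24) and Arc with AH236 (-1.37). It added calls in glutamate with AH236 (0.26 for Bdnf, -0.48 for Arc, 0.16 for Homer1). Those fits held fewer libraries. With DMSO medium replicate 1 left out as well, the medium calls returned (edgeR adjusted p = 0.00648, 0.00106 and 0.00361). Why the calls changed was not tested. Same-numbered libraries did not deviate together: of 84 pairs 4 had a correlation over 0.1, and the mean was -0.00109, so the numbers were not taken as pairs. With the replicate block the values over all 4 treatments were 3.87 for Bdnf, 4.24 for Arc and 1.56 for Homer1, and it changed no call, also with the 2 AH236 glutamate libraries that share a number exchanged.

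With each of the 24 libraries left out in turn, values against DMSO in medium ran from 0.94 to 1.96 (Bdnf), 0.47 to 1.41 (Arc) and 0.15 to 0.34 (Homer1) with IS141, from 0.38 to 1.40, -0.62 to 0.32 and -0.032 to 0.16 with AH609, and from 0.21 to 1.23, -1.62 to -0.68 and -0.039 to 0.15 with AH236. In glutamate Arc ran from -0.078 to 0.009 with IS141, -0.093 to 0.004 with AH609 and -0.55 to -0.42 with AH236, and Homer1 from 0.14 to 0.22, 0.14 to 0.21 and 0.15 to 0.21. The change of the glutamate effect ran from -1.78 to -0.76 (Bdnf), -1.46 to -0.52 (Arc) and -0.17 to 0.022 (Homer1) with IS141, from -1.23 to -0.21 (Bdnf) and -0.36 to 0.58 (Arc) with AH609, and from -0.96 to 0.065 (Bdnf) with AH236. The medium and interaction extremes came without DMSO medium replicate 1 or 2. The 15 values of glutamate against medium kept their calls.

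With DMSO medium replicate 1 left out, choices added after seeing the data, DESeq2 called Arc with IS141 (1.43) and Bdnf with AH609 and AH236 (1.41 and 1.24) in medium, Homer1 with the 3 agents in glutamate (0.17, 0.17 and 0.18), Arc with AH236 in glutamate (-0.47), and in the glutamate effect Bdnf (-1.79, -1.24 and -0.96) and Arc with IS141 (-1.46). Groups fitted alone called Bdnf with AH609 and AH236 in medium (1.40 and 1.23), Bdnf in the glutamate effect (-1.78, -1.23 and -0.96) and Arc with IS141 (-1.45). Both kept the medium calls of Bdnf and Homer1 with IS141 (1.97 and 0.34 by DESeq2, 1.96 and 0.34 alone) and of Arc with AH236 (-0.68 in each). Arc with AH609 turned to 0.33 and 0.32 in medium and to -0.36 and -0.36 in the glutamate effect. Other removals changed the calls of correlations, as the report gives. Bdnf and Arc in medium passed without DMSO medium replicates 2 and 3 (r = 0.852) and without the AH236 libraries (0.785). Without DMSO medium replicate 1 that r was 0.551. Arc and Homer1 in medium lost the call without DMSO medium replicate 1 and IS141 medium replicate 3 (0.547). Bdnf and Arc in glutamate lost it without the AH236 libraries (-0.573). The cause of these changes was not tested.

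Counts of all genes called in medium were 1269, 487 and 1671 for IS141, AH609 and AH236, but 62, 3 and 87 with the groups alone, and 563 to 1933, 223 to 1003 and 934 to 2229 with 1 library left out. In glutamate 1346, 417 and 1633 ran from 605 to 2423, 163 to 995 and 801 to 2530. For the glutamate effect 124, 4 and 246 became 30, 0 and 18 with the groups alone, 211, 28 and 443 with DESeq2, 14 for AH609 with no filter, and 68 to 742, 0 to 214 and 77 to 496 with 1 library left out. The lowest count of the 3 genes in any library was 198.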
